A study of Homo sapiens with 2 samples.

Results

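GATA1 chromatin immunoprecipitation was read on promoter arrays at the genes of the platelet adhesion receptors glycoprotein Ib-IX-V and glycoprotein VI, together with CD36 (glycoprotein IV). The genes were GP1BA, GP5, GP9, GP6 and CD36, which are 5 of the 17279 gene symbols named on the arrays. A probe belonged to a gene when its annotation in the array file gave that symbol with a distance to the gene's start, and 172 probes met this rule. None of the 172 probes carried the symbol of a second gene, and none was removed by the filters on flagged or dim spots. The chromatin came from untreated parental Meg-01, a leukemia line of the human megakaryocyte lineage, so the data held no treated or GATA1-depleted group. DNA pulled down with the GATA1 (C-20) antibody was labeled with Cy5, and DNA pulled down with normal goat IgG was labeled with Cy3. The samples chIP1 and chIP2 are 2 array designs with different probes, so 1 hybridization gave each value. Neither an error between preparations nor a test between groups was possible. GP5, GP9 and CD36 lay on chIP1, and GP1BA and GP6 on chIP2. Since the arrays hold no RNA measurement, the identity of the cells could not be checked by marker genes.

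Platelets are shed by megakaryocytes and stop bleeding by adhering to exposed vessel wall. The glycoprotein Ib-IX-V complex catches von Willebrand factor under flow, and its chains are the GP1BA product, which carries the binding site, the GP1BB and GP9 products, which are needed for the complex to reach the cell surface, and the GP5 product, which is a substrate of thrombin. Glycoprotein VI binds collagen and signals through the Fc receptor gamma chain, encoded by FCER1G. CD36 binds thrombospondin, oxidized lipoproteins and fatty acids, and is also made in many cells outside the megakaryocyte lineage. GATA1 is a zinc finger factor of the erythroid and megakaryocyte lineages that recognizes GATA sequences, often near ETS factor sites in megakaryocyte genes.

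The 250 bases upstream of the annotated starts are shown because the probes nearest to each start lay in or beside this stretch. They are from RefSeq on GRCh38.p14, written on the strand of the gene, with every GATA (or TATC, its reverse complement) in capitals. GP9 lies at chr3:129060529-129060778 on the plus strand, GP5 at chr3:194399267-194399516 on the minus strand, and GP6 at chr19:55038265-55038514 on the minus strand. RefSeq lists 6 CD36 starts. The array annotated CD36 around an upstream and a downstream start 36434 bp apart, and the RefSeq starts with the nearest spacing, 36435 bp, follow chr7:80601957-80602206 and chr7:80638392-80638641, both on the plus strand. The genome build of the array's own coordinates is not given in the sources used here, so RefSeq sequences were matched to the arrays by gene name and start, not by position. GP1BA was not among the promoter sequences used.
GP9: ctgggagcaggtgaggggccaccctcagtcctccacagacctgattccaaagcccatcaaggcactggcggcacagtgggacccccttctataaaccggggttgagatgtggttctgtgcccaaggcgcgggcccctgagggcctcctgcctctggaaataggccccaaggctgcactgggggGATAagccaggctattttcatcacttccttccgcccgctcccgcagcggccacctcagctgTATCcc
GP5: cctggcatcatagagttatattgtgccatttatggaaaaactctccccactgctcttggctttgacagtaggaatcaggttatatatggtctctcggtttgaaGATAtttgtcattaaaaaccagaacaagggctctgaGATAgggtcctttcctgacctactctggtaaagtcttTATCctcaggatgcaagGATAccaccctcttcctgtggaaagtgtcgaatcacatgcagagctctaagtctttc
GP6: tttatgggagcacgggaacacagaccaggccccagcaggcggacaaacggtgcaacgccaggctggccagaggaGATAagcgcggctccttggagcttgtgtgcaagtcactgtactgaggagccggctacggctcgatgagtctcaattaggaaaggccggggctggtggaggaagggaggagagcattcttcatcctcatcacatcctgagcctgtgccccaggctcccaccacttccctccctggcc
CD36 upstream start: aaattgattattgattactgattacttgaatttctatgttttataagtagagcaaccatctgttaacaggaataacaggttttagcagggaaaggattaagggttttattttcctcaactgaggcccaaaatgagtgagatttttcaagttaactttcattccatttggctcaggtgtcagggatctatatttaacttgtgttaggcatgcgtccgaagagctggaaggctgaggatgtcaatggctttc
CD36 downstream start: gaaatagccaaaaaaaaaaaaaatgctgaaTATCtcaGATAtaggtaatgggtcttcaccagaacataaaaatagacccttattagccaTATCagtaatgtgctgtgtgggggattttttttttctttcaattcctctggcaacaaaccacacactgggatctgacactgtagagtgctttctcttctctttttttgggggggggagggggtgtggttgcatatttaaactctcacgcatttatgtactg

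These windows were searched on both strands for the GATA motif, in the form AGATAA, the second form AGATAG, the third form TGATAA or the fourth form TGATAG. They were also searched for core letters of ETS sites, in the form AGGAAG or with the first letter changed as in CGGAAG. The GP5 window held 1 GATA motif, AGATAG from -112 to -107 bp, and the GP6 window held 1, AGATAA from -177 to -172 bp. The windows of GP9 and of both CD36 starts held none of these 4 motifs, although GATA alone occurred at 2 positions in GP9 and 3 at the CD36 downstream start. The CD36 upstream start had no GATA on either strand. An ETS letter match was present in GP9 (2 overlapping matches between -44 and -35 bp), GP5 (1) and GP6 (1), and in neither CD36 window. Among all 35116 promoter windows of this length, 22.3% held a GATA motif, 45.6% held GATA alone and 40.8% held an ETS letter match, so a match in a single window is common. The CD36 windows were rich in A and T, with 37.2% and 39.2% G or C against 62.8% in GP9, 60.8% in GP6, 43.2% in GP5 and a median of 58.0% over all promoters.

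The measurement was log2 of the processed IP signal over the processed IgG signal, set to a median of 0 on each array, so that positive values are on the IP side. Neighboring probes were read as means over windows of 3 probes whose starts were at most 1000 bp apart, and a window was called enriched at 2-fold or more toward the IP (log2 of 1) and depleted at 2-fold or more toward the IgG. Adjacent windows share probes, and the sonicated fragments spanned several probes, so neighboring values are not independent. The error beside a probe is the scanner software's error of its log ratio, and the error beside a window is that error propagated over its 3 probes. Both cover 1 hybridization only. The arrays had 237004 and 236864 usable genomic probes with log ratio SDs of 0.97 on each. The median IP spot signals were 543 and 544 against 342 and 340 on negative control spots, and the median IgG signals were 412 and 440 against 303 on negative controls of both arrays.

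GP1BA, GP9, GP6 and CD36, that is 4 of the 5 genes, had an enriched window, and 57.1% of the 17053 genes with any window had one. A depleted window was present in 2 of the 5 genes, GP5 and CD36, against 52.9% of all genes. CD36 was the 1 gene with both. Enriched windows were 13 of the 149 windows of the 5 genes (8.72%) against 7.62% of all 415403 windows. Depleted windows were 38 of 149 (25.5%) against 9.65% of all windows, and 33 of these 38 lay at CD36. Some of these CD36 windows fell short of 2-fold under background correction with normexp. Without CD36, 6 of 72 windows were enriched and 5 were depleted. The median over the 5 genes was 1.20 for the highest window and -0.97 for the lowest, and over all genes these medians were 1.09 and -1.05. Because enriched and depleted windows were this common among all genes, the number of genes with one does not set the 5 genes apart, while the larger share of depleted windows was carried by CD36. The loci differed in where along the gene their IP-side and IgG-side probes lay.

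**Figure D1:**
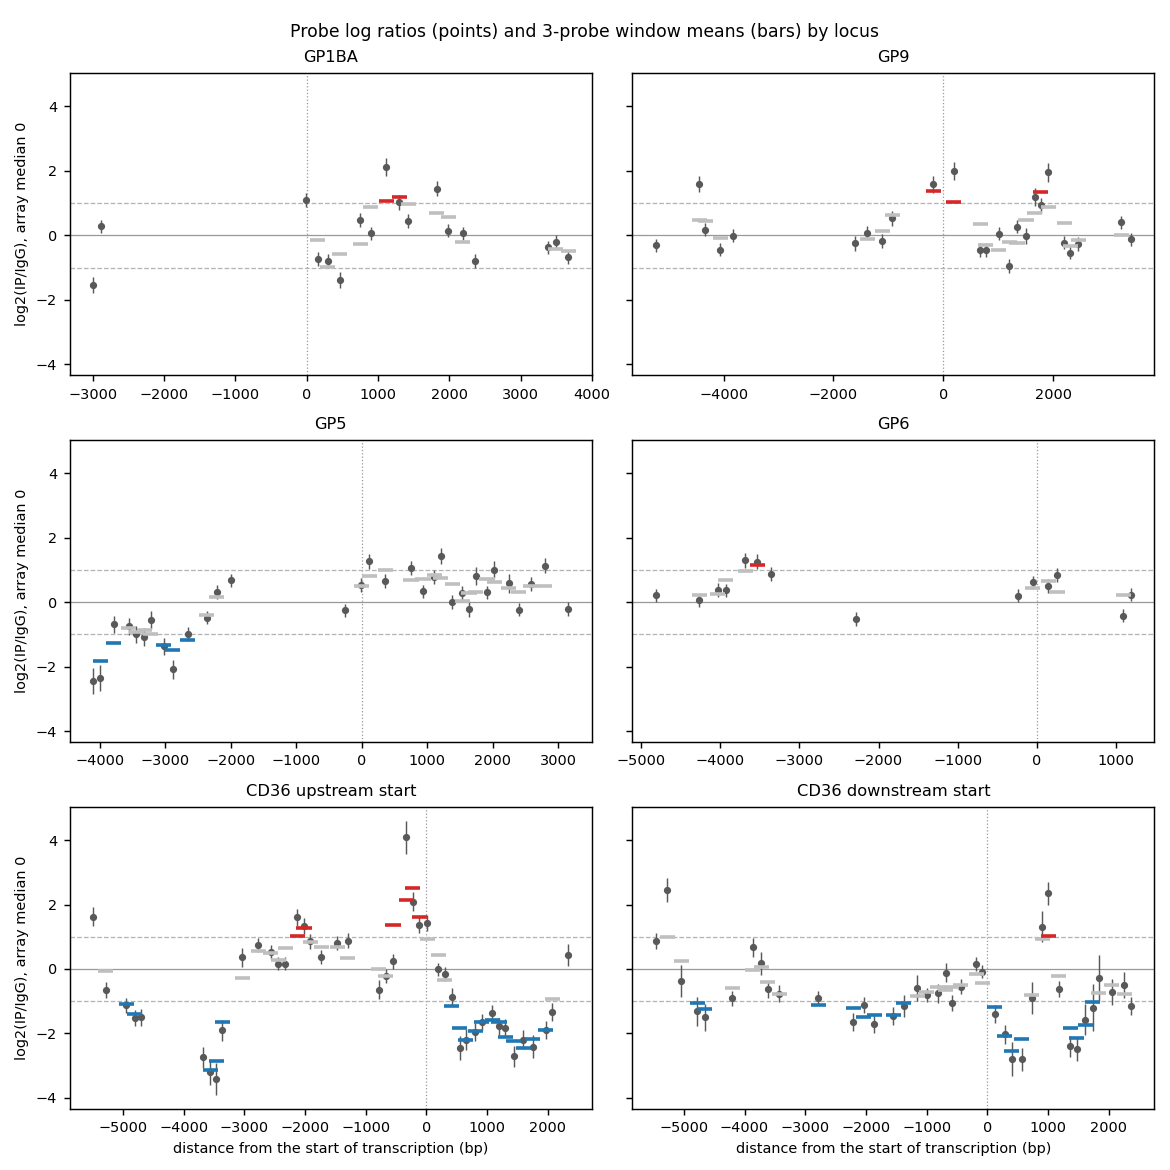
Log2 of IP over IgG (array median 0) of each probe against its distance in bp from the annotated start, 1 panel per locus. Points are probes with the scanner error as vertical line, short bars are means of 3-probe windows drawn at the center probe (red at 1 or more, blue at -1 or less, gray between), and dashed lines mark 2-fold. The highest window stood at -222 bp of the CD36 upstream start and the lowest at -3565 bp of the same start.

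GP1BA encodes the chain of glycoprotein Ib that binds von Willebrand factor. Its 18 probes lay between 4773354 and 4780062 on chromosome 17 and formed 14 windows, with a median probe value of 0.06 and a range from -1.54 to 2.12. The single probe at the start, at -14 bp, had a value of 1.10 ± 0.23 (scanner error). The next 3 probes, inside the gene at 158, 297 and 468 bp, were all on the IgG side, at -0.74, -0.80 and -1.38. The probes within 500 bp of the start therefore had a mean of -0.46, at the 10.1 percentile of the 9850 starts of that array with at least 2 such probes. The enriched signal lay further inside the gene, where the probes at 1117, 1297 and 1425 bp had values of 2.12, 1.02 and 0.45. Their window, from 4777464 to 4777823, had a mean of 1.20 ± 0.14 or 2.30-fold, and 4.52% of the windows on the array were as high. The highest window of GP1BA ranked at the 60.0 percentile of the highest windows of the 8756 genes on the array. The lowest window, centered at 297 bp, was -0.97 and stood just short of 2-fold. It passed 2-fold under intensity loess (-1.14) and after removal of the distance trend (-1.21). The lowest window of GP1BA was further from 2-fold under normexp (-0.75) and with windows of 5 probes (-0.48). No probe covered the stretch from -2879 to -14 bp, so most of the GP1BA upstream region was not measured on the array.

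GP9 encodes the glycoprotein IX chain of the same complex. It had 25 probes and 21 windows on chromosome 3 between 130257082 and 130265775, with a median probe value of -0.01 and a range from -0.96 to 1.99. The probes on either side of the start, at -180 and 186 bp, had values of 1.58 ± 0.25 and 1.99 ± 0.28, while the neighbors at -931 and 671 bp had 0.53 and -0.46. These 2 start probes averaged 1.78, which was at the 99.3 percentile of the 9272 starts measured on the array. The window centered at -180 bp, from 130261388 to 130262555, had a mean of 1.36 ± 0.15, or 2.57-fold, and the next one, centered at 186 bp, had 1.04. Spacing was wide there, so the enriched stretch of 1648 bp rests on 4 probes. A second enriched window lay downstream of the gene, centered at 1774 bp from the start, with probe values of 1.19, 0.94 and 1.96 and a mean of 1.36. That window was dim, at the 12.2 percentile of window brightness on its array, whereas the window at the start was at the 38.3 percentile. No window of GP9 was depleted, and the lowest was -0.45. Under background correction with normexp, no GP9 window reached 2-fold, and the highest was 0.99.

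GP5 encodes glycoprotein V and was the 1 gene of the complex on these arrays with no enriched window. Its 32 probes and 28 windows lay between 195598356 and 195605660 on chromosome 3. The values split by side of the start. The 17 probes inside the gene had a median of 0.58, and the 15 upstream probes had a median of -0.74. Around the start, the probes at 752, 361, 115 and -7 bp had values of 1.07, 0.66, 1.26 and 0.54, and the probe at -254 bp had -0.26. The highest window, centered at 361 bp, had a mean of 0.995 ± 0.13, or 1.99-fold, just under the threshold. Under intensity loess it was 1.02 and was called enriched. The highest GP5 window was 0.93 under normexp, 0.85 with windows of 5 probes and 0.82 after removal of the distance trend. Further upstream, 11 consecutive probes from -2371 to -4099 bp were all on the IgG side, with a mean of -1.25. Their 5 depleted windows fell into stretches of 911 and 598 bp. The lowest, centered at -3996 bp, had a mean of -1.83 ± 0.21, or 3.56-fold toward the IgG, and lay among dim probes at the 3.24 percentile of window brightness. Under normexp that window was -0.86, and the lowest GP5 window was instead the one centered at -2887 bp, at -1.0034. The depleted window at -2656 bp, with a mean of -1.19, was at the 64.1 percentile, so the GP5 probes on the IgG side were not all dim. Its lowest probe, -2.09 at -2887 bp, was at the 43.9 percentile of probe brightness. Under normexp the mean of the window at -2656 bp was -0.82, short of 2-fold.

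GP6 encodes glycoprotein VI. It had the fewest probes, 14, in 9 windows between 60240230 and 60246277 on chromosome 19, and 12 of them were on the IP side. Its probes were bright, with a median at the 90.5 percentile of probe brightness. At the start, the probes at 255, 142, -55 and -237 bp had values of 0.84, 0.50, 0.61 and 0.20, a mean of 0.54 at the 70.6 percentile of starts on that array, and no window there reached 2-fold. The AGATAA of the GP6 promoter sequence lies between the positions of the probes at -237 and -55 bp as counted from the start. The enriched window was upstream, centered at -3533 bp (60244780 to 60245159), with probe values of 0.88, 1.25 and 1.30 and a mean of 1.15 ± 0.13, or 2.21-fold. These 3 probes had an SD of 0.23, the smallest spread among the highest windows of the 5 genes. The lowest GP6 window was 0.21, above the lowest windows of 98.4% of genes on the array. GP6 and GP1BA were enriched also under normexp, at 1.21 and 1.13. With windows of 5 probes GP6 fell to 0.84.

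CD36 covered the widest measured range, with 83 probes and 77 windows on chromosome 7, more windows than 99.5% of genes on the array. It held both the highest and the lowest window of the 5 genes. Of its probes, 43 were annotated to the upstream start and 40 to the downstream start. The median probe value was -0.65 at the upstream start and -0.85 at the downstream start, both below the array median of 0. The probes were also dim, with median brightness percentiles of 28.4 and 9.60.

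At the CD36 upstream start, the probes at -331, -222, -113 and 13 bp had values of 4.09, 2.08, 1.36 and 1.44. All 4 were on the IP side, and the probes just outside them, at -550 and 200 bp, had 0.23 and -0.01. The window centered at -222 bp (79875813 to 79876090) had a mean of 2.51. The matched RefSeq sequence of the 250 bases before this start held no GATA on either strand. The probe at -331 bp lies outside these bases, so the sequence under the window was searched only in part. The IgG signal of the probe at -331 bp was 28.6 and was not well above background. Its measured ratio of 17.1-fold, and the 5.70-fold of the window at -222 bp, are therefore uncertain. Under normexp the value of the probe at -331 bp was 0.81. When probes were required to be well above background in both channels, this probe dropped out and the highest CD36 window was 1.63 ± 0.15, or 3.09-fold, centered at -113 bp. With normexp, the window at -222 bp had a mean of 0.84, and the highest CD36 window was instead the one centered at -2016 bp, at 1.19. That second stretch had values of 1.60, 1.33 and 0.85 at -2125, -2016 and -1915 bp, a mean of 1.26 ± 0.14, and a brightness percentile of 84.0. It lay within a run of 11 consecutive IP-side probes from -3035 to -1298 bp with a mean of 0.71.

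The IP-side stretches of the CD36 upstream start were flanked by IgG-side stretches on both sides. Upstream, the probes at -3683, -3565, -3465 and -3362 bp had values of -2.74, -3.21, -3.41 and -1.91. Their lowest window, at 79872461 to 79872738, had a mean of -3.12 ± 0.24, or 8.69-fold toward the IgG, and 109 of the 208775 windows on the array were as low. That window was dim, at the 6.51 percentile of window brightness. Its IP spot signals were 377, 365 and 347, against a median of 342 on negative controls. Its fold is therefore uncertain, although its probes were flagged well above background. Under normexp the lowest CD36 window was -1.56. Inside the gene, 15 consecutive probes from 200 to 2075 bp were on the IgG side with a mean of -1.65. These gave 12 consecutive depleted windows over 1835 bp, with means from -2.44 to -1.16. Windows centered at -222 and 1600 bp of the same start thus had means of 2.51 and -2.44.

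The CD36 downstream start had a different profile. The probes at -185 and -80 bp had values of 0.15 and -0.09, and the 6 probes within 500 bp had a mean of -1.12, at the 2.36 percentile of starts on the array. The corresponding mean of 7 probes at the upstream start was 1.13, at the 93.3 percentile, but 0.64, at the 73.9 percentile, over the 6 probes well above background in both channels. From 124 to 567 bp the probes had values of -1.39, -2.03, -2.80 and -2.81, and their lowest window, centered at 404 bp, had a mean of -2.55 ± 0.24. That window was also dim, at the 3.92 percentile of window brightness, with processed IP signals from 32.1 to 114. Its mean under normexp was -1.23. An IP-side pair followed at 905 and 1007 bp, with 1.31 and 2.35, and their window of 1.01 was just past 2-fold. It was among dim spots, at the 4.38 percentile of window brightness, and its mean under normexp was 0.01. In all, 16 of the 38 windows of the downstream start and 17 of the 39 of the upstream start were depleted. Not all of them stayed past 2-fold under normexp. At the downstream start, the depleted windows centered from -2781 to -1379 bp all fell short, the lowest at -0.93. At the upstream start, those centered from 650 to 1972 bp stayed depleted, from -1.47 to -1.02, while the window at 420 bp fell to -0.60.

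**Figure D2:**
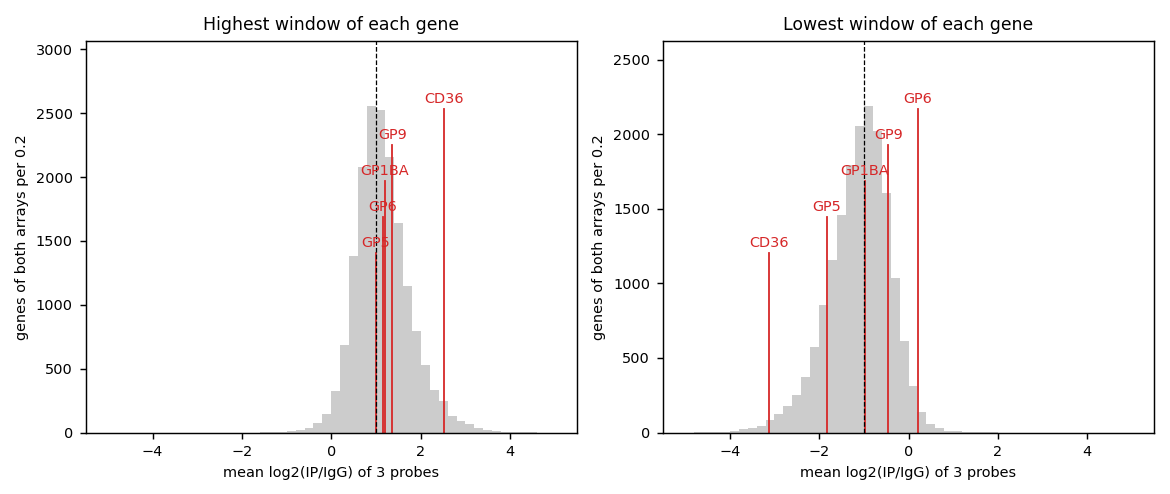
Distribution over all 17053 genes of the highest (left) and lowest (right) 3-probe window of each gene, as mean log2 of IP over IgG, with the 5 genes marked by red lines and 2-fold by a dashed line. Bars count genes in steps of 0.2. CD36 was lowest at -3.12 and highest at 2.51, but its highest window was 1.63 without the probe not well above background and 1.19 under normexp. Its lowest window was -1.56 under normexp. The other 4 highest windows lay between 0.995 and 1.36, in the body of the distribution.

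Against the genes of the same array, the highest windows ranked at the 97.3 percentile for CD36, 66.7 for GP9, 60.0 for GP1BA, 56.5 for GP6 and 40.2 for GP5. The CD36 rank rests on the probe at -331 bp. With both channels required to be well above background, it was at the 82.7 percentile of all genes of both arrays. Under normexp it was at the 81.6 percentile, below GP6 at the 82.6 percentile. The lowest windows ranked at the 0.862 percentile for CD36, 14.4 for GP5, 52.0 for GP1BA, 86.9 for GP9 and 98.4 for GP6. CD36, with the most windows (77), had both extremes, and GP6, with the fewest (9), had the lowest window nearest to the IP side, while GP5 had 28 windows and the smallest of the highest windows. The part of the number of windows in these ranks was not tested. The means over the probes near each start do not depend on the number of windows. They gave the order GP9, CD36 upstream start, GP5, GP6, GP1BA and CD36 downstream start, from 1.78 to -1.12. However, they rest on few and unequal numbers of probes, 2 for GP9, 4 each for GP5, GP6 and GP1BA, and 7 and 6 at the CD36 starts. Without the probe at -331 bp the CD36 upstream start, at 0.64, was next to GP5 and GP6. The probes ran from -0.87 to 2.08 at the CD36 upstream start, from -0.26 to 1.26 at GP5 (mean 0.55) and from 0.20 to 0.84 at GP6 (mean 0.54). These ranges cover different positions and are not errors of the means, and GP6 lay on the other array. Whether these 3 starts differ was not tested.

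Brightness moved with the values. Dim probes spread more widely than bright ones on these arrays, and the dimmest locus, CD36, had the widest probe SD, 1.43, while the brightest, GP6, had 0.54. Compared with probes of like brightness, 16 of the 83 CD36 probes lay under the 5th percentile and 6 lay above the 95th. Of these, 13 under and 4 above were at the upstream start. The other 4 genes had 5 probes under and 8 above in 89. The part of brightness in the CD36 values was not tested further.

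**Figure D3:**
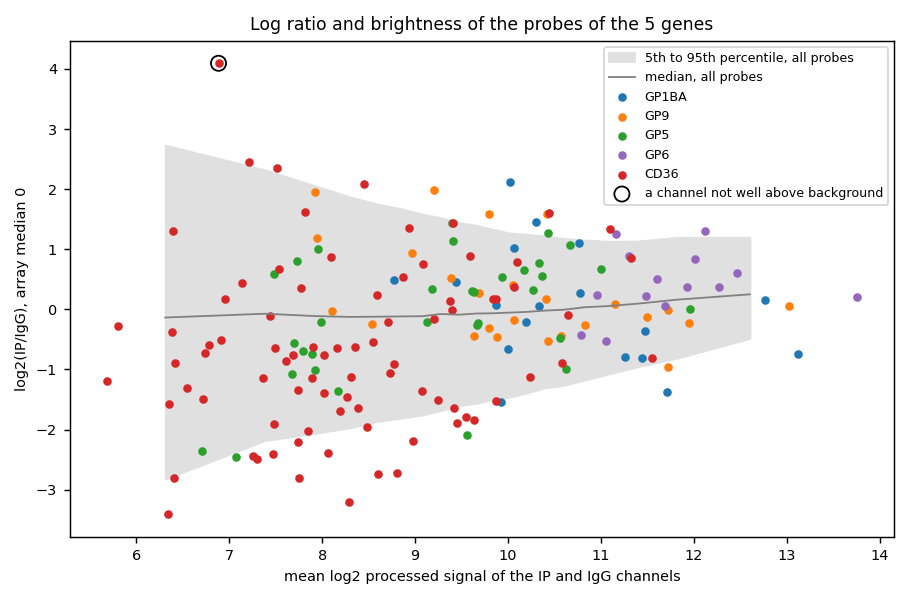
Log2 of IP over IgG of the 172 probes against their brightness, the mean log2 processed signal of both channels, colored by gene. The gray band spans the 5th to 95th percentile of all probes in 20 brightness bins and the gray line is their median. CD36 probes gathered on the dim side and 16 lay below the band, and the circled CD36 probe, at 4.09, had an IgG signal not well above background.

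The ligands, partners and signaling genes of these receptors were taken from a list of 31 genes, of which 30 were named on the arrays. Of the 30, 19 had an enriched window (63.3%) and 15 a depleted one, near the shares of all genes. Both kinds were present in 13, so most genes named below for an enriched window also had a depleted one. The lowest windows of the list were at FYN (-3.44) and COL3A1 (-3.27). The median highest window was 1.17 and the median lowest was -1.03. All 5 ligand genes had an enriched window, as did 57.1% of all genes, and no test set the ligands apart. These were COL1A2 (2.83), COL3A1 (1.38) and COL1A1 (1.25), which encode fibrillar collagen chains, VWF (2.51), and THBS1 (2.12), the thrombospondin bound by CD36. The windows of VWF and of GRAP2, a signaling adaptor gene, were centered 173255 and 41063 bp from the annotated start and so were no promoter signals. The other enriched windows of the list were centered between -5262 bp (LCP2) and 1926 bp (FLNA) from the start, so not all lay close to it. Among the 7 other receptor genes, CLEC1B (2.00), the podoplanin receptor, and ITGA2B (1.44), the fibrinogen receptor alpha chain, had one. FCER1G, the signaling partner of glycoprotein VI, did not, with a highest window of 0.37. Enriched windows of signaling genes were in 6 of 10, FYN (1.48), BTK (1.33), SYK (1.31), GRAP2 (1.17), LCP2 (1.15) and PIK3CB (1.12). The remaining genes with an enriched window were FLNA (1.71) and YWHAZ (1.47), whose products bind the glycoprotein Ib tail, the tetraspanin genes CD9 (1.29) and CD63 (1.11), ADAM10 (1.18), a protease that sheds glycoprotein VI, and ADAMTS13 (2.20), which cleaves von Willebrand factor.

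**Figure D4:**
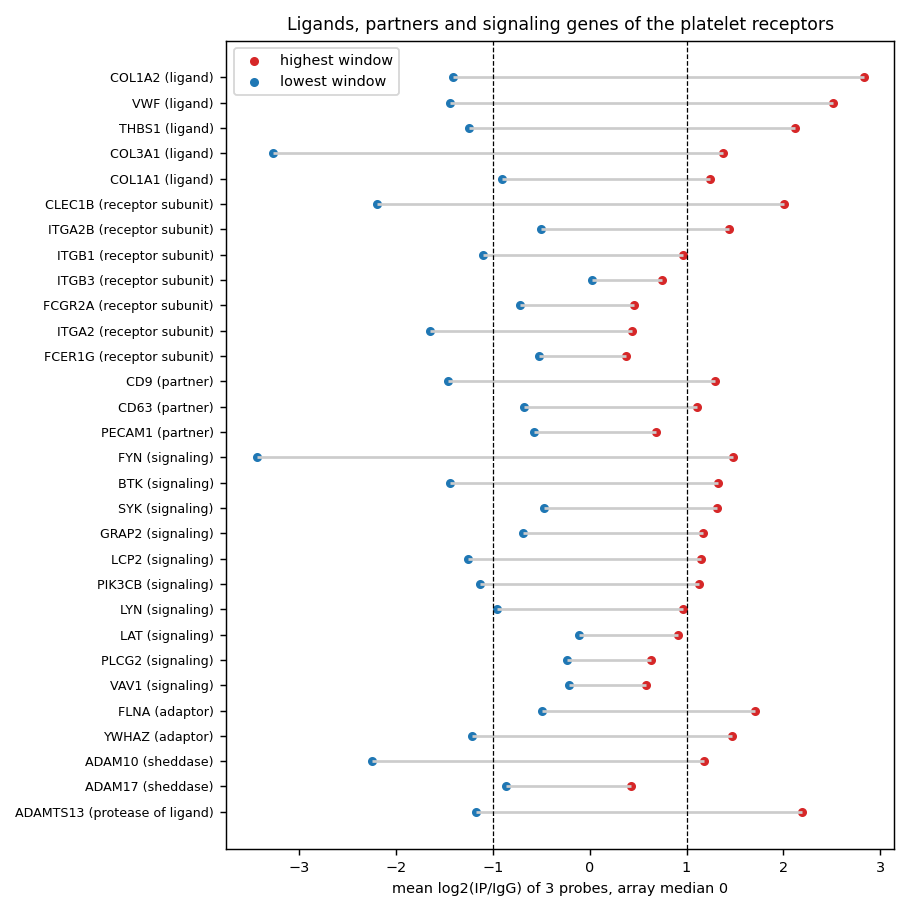
Highest (red) and lowest (blue) 3-probe window of the 30 ligand, partner and signaling genes, as mean log2 of IP over IgG, ordered by role and then by highest window, with dashed lines at 2-fold. Each gene has 1 line from its lowest to its highest window. Past 2-fold toward the IP were 19 of the 30 genes (63.3%), against 57.1% of all genes.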

How the data were processed

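GATA1 IP and IgG DNA of Meg-01 cells was co-hybridized to 2 two-color Agilent promoter arrays. The deposited values were scanner intensity columns of Feature Extraction 9.5.3.1, in which, per the file headers, processed signals were spatially detrended, background-corrected and dye-normalized linearly. The deposited log10 columns were the scanner error of the log ratio and a value table of the log10 ratio of Cy5 over Cy3. The study's own peak calls used other normalization and are not used here. Control spots and spots flagged as outliers were removed, and so were spots not well above background in either channel. Log2 ratios were centered on each array's median, averaged over 3 probes at most 1000 bp apart by start, and summarized per gene (Python 3.11.15, pandas 2.3.3, numpy 2.4.6). The window steps were tested on simulated data. Alternatives were loess on intensity, normexp with offset 50 (limma 3.58.1, R 4.3.3), the deposited log10 table, other filters, 1 or 5 probes, center probes only, removal of the distance trend, windows within 1000 bp of a start, and thresholds of 1.5-fold and 3-fold. Genes named in the text were the 5 genes, the listed genes with an enriched window, and genes sharing probe annotation with a member. FCER1G and GP1BB were named in addition, as partner chains of the receptors, after their values were seen. The genes and lists were chosen with earlier results of these data known. With 1 hybridization per probe, the number of arrays limits the precision, and no p-value was computed. Scanner errors cover variation within 1 array.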

Additional observations from a re-analysis of the deposited data

How the results depend on the processing

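The number of the 5 genes with an enriched window was 4 in the reported setting, 2 with windows of 5 probes, 2 with windows centered within 1000 bp of a start, and 1 at a threshold of 3-fold. The share of all genes with such a window fell likewise, from 57.1% to 34.1%, 33.5% and 20.6%. The number of the 5 genes stayed between 3 and 5 under the other 10 alternatives, among them the addition of probes that carry a gene's accession under another symbol, which was chosen after seeing the data. The share of all genes under these 10 ran from 33.1% (normexp, 3 of the 5 genes) to 86.1% (single probes, 5 of the 5). The number with a depleted window was 2 and became 1 within 1000 bp of a start (17.4% of all genes, against 52.9%), and was 2 or 3 otherwise. In those other settings the share of all genes ran from 22.3% (3-fold, 2 of the 5 genes) to 81.1% (single probes, 3 of the 5). Within 1000 bp, the lowest window of GP5 was 0.52 and so changed sign, because its depleted windows lie further upstream. The 19 listed pathway genes with an enriched window became 9 under normexp, 12 within 1000 bp of a start and 6 at 3-fold, where 33.1%, 33.5% and 20.6% of all genes had one. Of the 55 alternative values of highest windows, 43 moved by less than 2 times the scanner error of the reported window, and of the 55 lowest windows 45 did. No paired analysis was possible because each probe was measured in 1 hybridization and no test between groups was made. Requiring both channels well above background, also chosen after seeing the data for the means near the starts, moved 1 of those 6 means, that of the CD36 upstream start, from 1.13 to 0.64.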

Other observations

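GP1BB, the gene of the glycoprotein Ib beta chain, was not found by symbol on the arrays. However, 4 probes of the neighboring gene SEPT5 on chIP2 carried a GP1BB accession, at -9864, -9624, -9396 and -9223 bp from the GP1BB start. Their values were 3.70 ± 0.42, 3.57 ± 0.40, -0.12 ± 0.22 and 0.46 ± 0.21. The window centered on the probe at -9624 bp had a mean of 2.39, or 5.23-fold. The first 2 of these probes had IgG signals of 53.6 and 72.5 and IP signals of 701 and 865, and all were well above background in both channels. They were dim, at the 9.97 and 13.9 percentiles of brightness. The annotation set them in the promoter of SEPT5, and whether they belong to either gene was not tested.

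GP1BA had 9 further probes downstream, named for SLC25A11 or for SLC25A11 and RNF167, which carried a GP1BA accession. Their values ranged from -1.40 to 1.37, and their windows ranged from -0.59 to 0.36.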
